A study of Mus musculus with 8 samples.

Results

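The 10 genes described here (Ly75, Sept1, Hmces, Spp1, Morc1, Tgm3, Lgals3, Xrcc6, Ncam1 and Mapt) are those whose values after eIF4A2 knockdown lay far below control in ribosome footprints, in total RNA or in both. They are 10 of the 13838 genes of the study's 2 tables, and all 10 stand in both tables and passed the filter on few reads in both. The rule set no numerical threshold, and it used the contrast of knockdown with control. Every knockdown value below is therefore a description of genes picked for it, with no test.

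The cells, J1 embryonic stem cells of the mouse strain 129S4/SvJae, were kept without feeders on gelatin in serum with leukemia inhibitory factor (LIF). In the eIF4A2 groups they carried an shRNA against eIF4A2, for which the protocol names sheIF4A2-2 and sheIF4A2-3, and in the control groups a control shRNA, shNT or shGFP. All groups went through infection, puromycin at 1 μg/mL for 3 days and harvest on day 4.5, with cycloheximide at 0.1 mg/mL for the last 1 min. There were 2 libraries in each of 4 groups: knockdown footprints, control footprints, knockdown total RNA and control total RNA. The sources used here do not tell which shRNA went into which library, and nothing beyond the words "biological replicates" says whether the libraries of a group came from separate cultures, so the spread between them may be partly technical.

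Ribosome profiling sequences the pieces of mRNA that ribosomes shield from nuclease, so footprints count ribosomes on a gene's mRNA and total RNA counts the mRNA itself. eIF4A2 is a DEAD-box helicase, one of the paralogs of eIF4A. As part of the cap-binding complex, eIF4A unwinds the leader of an mRNA so that the small ribosomal subunit can load. eIF4A2 has also been tied to the CCR4-NOT deadenylase complex and to repression of mRNAs. Stem cells in serum and LIF self-renew under Oct4, Sox2 and Nanog and keep low levels of many lineage genes.

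Values are given in CPM, the authors' reads per gene scaled to a common library size. Footprints rested on 7947827 and 9573832 reads from knockdown cells and on 9458103 and 10682677 from control cells. Total RNA rested on 12228408 and 12840349 reads from knockdown cells and on 8564582 and 9489221 from control cells. Eif4a2 itself stood at 311 and 153 CPM of footprints in the knockdown libraries against 395 and 409 in the control libraries, and at 583 and 617 CPM of total RNA against 739 and 969. It was lower in each knockdown library than in each control library, but knockdown 1 of the footprints held far more of it than knockdown 2. Of 10 stem cell markers all were measured in both assays, with sums of 5074 and 4912 CPM in knockdown footprints and 7290 and 6915 in control footprints, and of 4845 and 4803 CPM in knockdown total RNA and 6577 and 7287 in control total RNA. They were thus also below control, 9 of 10 genes in each assay. Marker lists of other cells were small or partly unlisted. Fibroblast markers (4 of 10 listed, with Dcn, Lum and Col3a1 not among them) summed to between 17.1 and 25.5 CPM of footprints over the 4 libraries, and macrophage or dendritic cell markers (Itgam and Cd68 of 10 symbols, with Ptprc, Itgax and Csf1r not among them) to between 7.43 and 11.3 CPM. Epidermal markers (4 of 8) summed to between 5.63 and 7.95 CPM. Primitive endoderm markers (8 of 10) summed to 320 and 233 CPM in knockdown footprints against 519 and 452 in control footprints, with the laminin gene Lama1 the most abundant. Of these markers 5 of 8 in footprints and 4 of 7 in total RNA had a negative log2 fold change, so the lower sum was not shared by all of them. The summed stem cell and primitive endoderm markers were below control along with the 10 genes, and their part in the values below was not tested. In bulk RNA, fewer cells of a kind and less RNA per cell cannot be told apart.

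All 10 genes were lower in both knockdown libraries than in both control libraries, in footprints and in total RNA alike. Knockdown footprints stood at between 28.9% (Tgm3) and 42.9% (Xrcc6) of the control mean, with a median of 35.8%, and knockdown total RNA at between 29.2% (Tgm3) and 50.3% (Xrcc6), with a median of 37.1%. Such a separation of the 2 groups in this direction was found in 22.5% of all 12723 genes tested in footprints and in 24.6% of the 13436 genes tested in total RNA. Even the nearest pair of libraries, the lower control and the higher knockdown, differed by 1.65-fold (Mapt) to 2.87-fold (Tgm3) in footprints and by 1.74-fold (Xrcc6) to 3.19-fold (Mapt) in total RNA. Between 49 and 7902 footprint reads and between 65 and 3022 total RNA reads per gene and library stood behind these values.

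**Figure D1:**
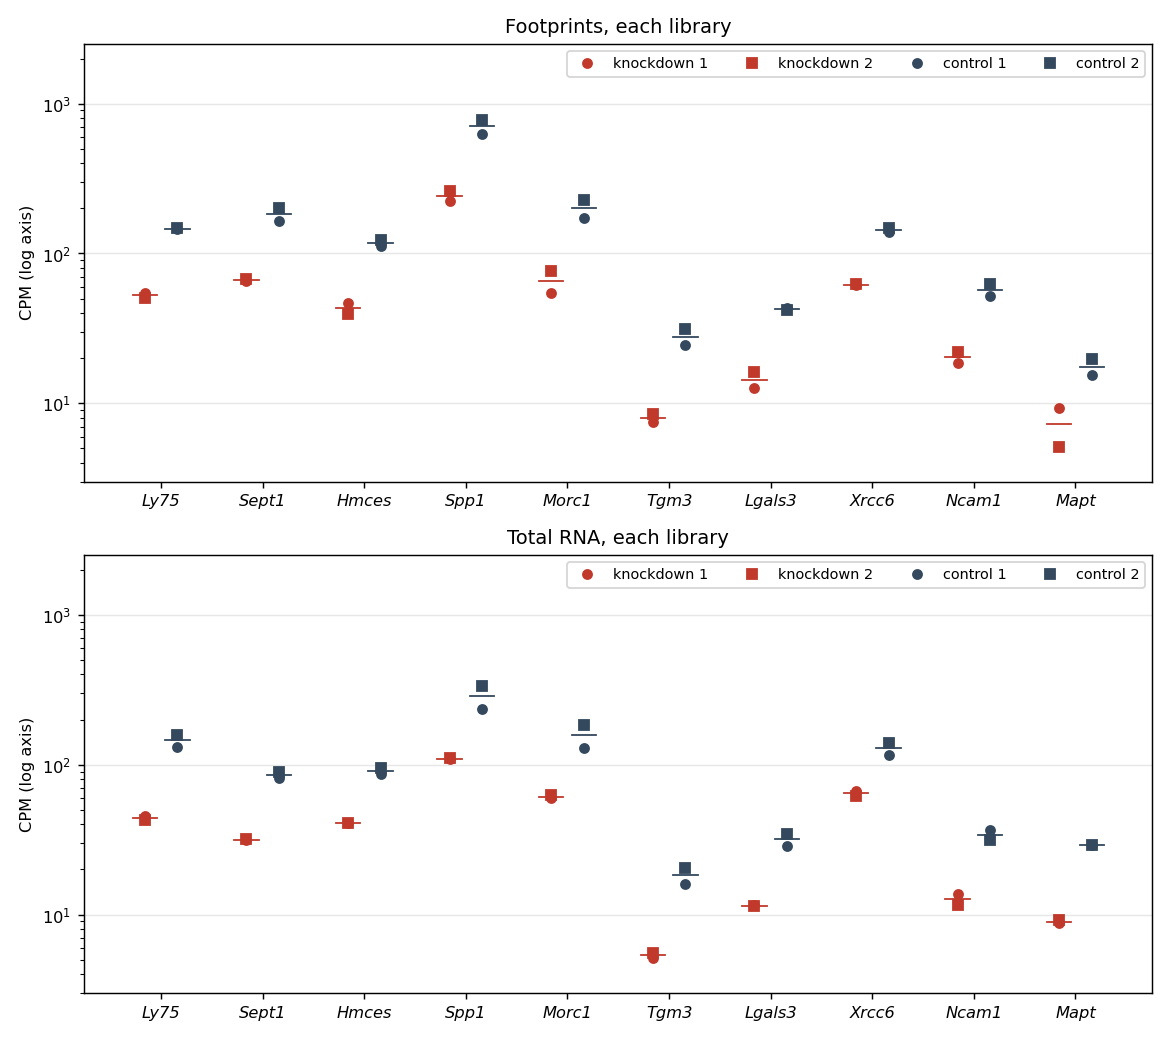
Values of the 10 genes in each of the 8 libraries, in CPM on a log axis, with footprints above and total RNA below. Red points are knockdown libraries and dark points control libraries (circle for replicate 1, square for replicate 2), and short lines are group means of 2 libraries. In every gene and both assays the red points lie below the dark points.

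Spp1 (ENSMUSG00000029304) encodes osteopontin, a secreted phosphoprotein that binds integrins through an RGD motif and also binds CD44. It is the member whose stem cell background is best known: in mouse, Oct4 binds as a dimer to a palindromic element (PORE) in the first intron of the gene. RefSeq lists 2 starts for Spp1, and the window around the downstream start (250 bases before it and 50 after it, GRCm38.p6, chr5:104435942-104436241, plus strand) holds the letters of such an element. It is shown here because the gene is a known stem cell target of Oct4, and the capitals mark the match to ATTTGNNNNNCAAAT, which overlaps the octamer ATGCAAAT.
Spp1, downstream start: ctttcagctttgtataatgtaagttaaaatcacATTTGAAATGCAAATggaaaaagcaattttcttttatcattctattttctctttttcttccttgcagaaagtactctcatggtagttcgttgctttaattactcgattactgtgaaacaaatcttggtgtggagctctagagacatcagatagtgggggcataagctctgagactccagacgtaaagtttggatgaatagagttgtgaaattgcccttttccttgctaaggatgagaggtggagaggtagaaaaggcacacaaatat
The octamer, searched on both strands, occurred in 1.74% of all 32851 RefSeq promoter windows of that length, and the longer palindrome, which was searched only after the letters around the octamer had been seen, in 17 windows (0.0517%). The window around the upstream start of Spp1 held neither. A match of letters is a description and says nothing about binding in these cells.

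Spp1 had 223 and 263 CPM of footprints in the knockdown libraries, against 624 and 783 CPM in the control libraries (243 ± 28.7 and 704 ± 112, mean ± SD, n = 2 each). Its total RNA was 109 and 111 CPM in the knockdown libraries, against 237 and 335 CPM in the control libraries. The knockdown libraries lay close together in total RNA, while control 2 was well above control 1 in both assays. The log2 fold changes, on the log2(CPM + 1) scale used throughout, were -1.53 ± 0.19 (SE) in footprints and -1.35 ± 0.19 in total RNA. The total RNA value was -1.60 without control 1 and -1.10 without control 2. The named genes of the osteopontin list, the integrin chains Itgb1 and Itga5, had positive log2 fold changes. Itgb1 was at 0.14 ± 0.22 for footprints and 0.18 ± 0.18 for total RNA, and Itga5 at 0.46 ± 0.19 and 0.61 ± 0.27. Of the 8 genes of this list tested in each assay, 7 were positive in footprints and 6 in total RNA. The integrin chain Itga9, picked after its values were seen, was negative, at -0.869 ± 0.231 for footprints and -1.295 ± 0.161 for total RNA.

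Lgals3 (ENSMUSG00000050335) encodes galectin-3, a lectin that binds β-galactosides and is secreted as well as found in nucleus and cytoplasm. It had 12.6 and 16.2 CPM of footprints in the knockdown libraries, against 43.4 and 41.8 CPM in the control libraries. In total RNA it had 11.5 and 11.3 CPM in the knockdown libraries, against 28.8 and 34.6 CPM in the control libraries. The knockdown libraries were thus at about the same low level in total RNA, and Lgals3 was the only one of the 10 with control 2 below control 1 in footprints. Its log2 fold changes were -1.51 ± 0.21 in footprints and -1.39 ± 0.17 in total RNA. The galectin Lgals1 had 76.5 ± 27.3 CPM in knockdown footprints and 52.7 ± 4.67 CPM in control footprints (SD, n = 2 each), above control in each knockdown library, whereas Lgals8 had 4.56 ± 0.388 and 9.07 ± 2.17 CPM.

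Ly75 (ENSMUSG00000026980) encodes DEC-205, an endocytic receptor of the mannose receptor family that is best known on dendritic cells, where it takes up antigen. Its footprints were 54.6 and 50.6 CPM in the knockdown libraries, against 145 and 147 CPM in the control libraries. Its total RNA was 45.4 and 43.0 CPM in the knockdown libraries, against 131 and 159 CPM in the control libraries. The replicates of each group nearly coincided in footprints, and the gap between groups was wide. The log2 fold changes were -1.45 ± 0.16 in footprints and -1.69 ± 0.15 in total RNA, the lowest total RNA value of the 10, with 5 genes of all 13436 below it. In the RefSeq gene table Ly75 lies between Cd302 and Pla2r1, which also encode C-type lectin receptors. Cd302 had few reads, with 1.37 ± 0.454 CPM in knockdown footprints and 3.31 ± 1.18 CPM in control footprints (SD, n = 2 each). Mrc2, another receptor of the mannose receptor family, had 4.91 ± 1.05 CPM in knockdown footprints and 3.15 ± 1.10 CPM in control footprints.

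Ncam1 (ENSMUSG00000039542) encodes an adhesion molecule of the immunoglobulin superfamily, which carries polysialic acid in the developing nervous system and is used as a mark of neural commitment. It had 18.6 and 22.1 CPM of footprints in the knockdown libraries, against 52.2 and 62.2 CPM in the control libraries. Its total RNA was 13.8 and 11.6 CPM in the knockdown libraries, against 36.9 and 31.4 CPM in the control libraries. The groups were far apart in both assays, and Ncam1 was the only member with total RNA control 2 below control 1. The log2 fold changes were -1.45 ± 0.20 and -1.36 ± 0.18. The epithelial cadherin Cdh1, of the same adhesion list, was above control in both assays, at 775 ± 189 CPM in knockdown footprints and 519 ± 25.1 CPM in control footprints (SD, n = 2 each). Fgfr1, a receptor that Ncam1 can bind, had 103 ± 6.05 CPM in knockdown footprints and 83.8 ± 20.8 CPM in control footprints. Neural markers summed to 163 and 194 CPM in knockdown footprints and 184 and 142 CPM in control footprints, where the groups overlapped. In total RNA their sums were 155 and 155 CPM for knockdown and 131 and 133 CPM for control cells, so that both knockdown libraries were above both control libraries there. The tubulin gene Tubb3 was the most abundant of them in each assay.

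Hmces (ENSMUSG00000030060) encodes a protein that crosslinks to abasic sites in single-stranded DNA and so shields them during replication. Its name, 5-hydroxymethylcytosine binding, ES cell specific, goes back to its recovery from mouse stem cell extracts. It had 46.7 and 39.3 CPM of footprints in the knockdown libraries, against 112 and 124 CPM in the control libraries. In total RNA it had 41.0 and 40.7 CPM in the knockdown libraries, against 86.4 and 94.4 CPM in the control libraries. Replicates lay close together, and knockdown and control did not come near each other. The log2 fold change was -1.44 ± 0.17 in footprints and -1.12 ± 0.13 in total RNA, so that the footprint change was the larger by 0.31 ± 0.22. Apex1, the main abasic site endonuclease, stood at -0.30 ± 0.18 for footprints and -0.03 ± 0.18 for total RNA, and Parp1, a sensor of DNA breaks, at -0.25 ± 0.18 and -0.26 ± 0.16.

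Xrcc6 (ENSMUSG00000022471) encodes Ku70, which forms a ring with Ku80 (Xrcc5) around broken DNA ends and starts non-homologous end joining, and mouse stem cells without it are sensitive to ionizing radiation. It had 61.4 and 62.5 CPM of footprints in the knockdown libraries, against 140.1 and 149 CPM in the control libraries. Its total RNA was 67.0 and 62.1 CPM in the knockdown libraries, against 116 and 140.3 CPM in the control libraries. Replicates agreed closely in footprints, but of the 10 genes Xrcc6 stood nearest to its control level. Its log2 fold changes were -1.21 ± 0.16 in footprints and -0.98 ± 0.15 in total RNA.

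The partner Xrcc5 had 182 and 276 CPM of footprints in the knockdown libraries, against 325 and 330.3 CPM in the control libraries. Its total RNA was 192 and 191 CPM in the knockdown libraries, against 239.6 and 282 CPM in the control libraries. It was below control in each library without passing limma's threshold (log2 fold change -0.55 ± 0.21 in footprints, adjusted p = 0.327, and -0.44 ± 0.14 in total RNA, adjusted p = 0.251). Rif1, which acts with 53BP1 in the choice of repair pathway, stood at 0.14 ± 0.21 for footprints and 0.04 ± 0.18 for total RNA. In the RefSeq table Xrcc6 overlaps Desi1, and the sources used here do not tell whether reads were counted by strand, so reads of the shared stretch are uncertain. Desi1 had 14.8 ± 1.45 CPM in knockdown footprints and 12.8 ± 0.628 CPM in control footprints (SD, n = 2 each). Its total RNA was 28.7 ± 2.27 CPM in knockdown and 24.6 ± 14.1 CPM in control cells.

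The promoter windows of Hmces and Xrcc6 are printed because both genes act in DNA repair. That both were lower follows from the choice of the members, and a shared control of these genes was not tested. GC boxes (GGGCGG on either strand) and a Klf site (CCACACCC) are in capitals. The Hmces window (chr6:87913726-87914025) and the Xrcc6 window (chr15:82016119-82016418) are from RefSeq, GRCm38.p6, plus strand.
Hmces: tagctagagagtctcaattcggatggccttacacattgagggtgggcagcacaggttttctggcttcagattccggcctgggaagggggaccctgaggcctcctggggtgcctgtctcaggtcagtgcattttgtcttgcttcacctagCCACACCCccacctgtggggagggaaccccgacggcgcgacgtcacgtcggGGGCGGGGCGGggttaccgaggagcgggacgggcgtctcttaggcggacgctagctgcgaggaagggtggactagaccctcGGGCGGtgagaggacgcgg
Xrcc6: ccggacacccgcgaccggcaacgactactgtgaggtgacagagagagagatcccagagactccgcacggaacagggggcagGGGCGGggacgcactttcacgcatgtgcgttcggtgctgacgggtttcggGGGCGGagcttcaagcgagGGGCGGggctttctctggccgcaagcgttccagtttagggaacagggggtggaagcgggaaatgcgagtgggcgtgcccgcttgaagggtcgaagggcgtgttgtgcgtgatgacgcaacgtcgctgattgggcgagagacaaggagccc
The Hmces window held 64.3% G and C and the Xrcc6 window the same share, against a median of 52.7% over all windows. This was not particular to the repair genes, as the windows of Ly75 and Lgals3 held 67% each. The window of Tgm3 held 46.7%, and those of Spp1 45.3% (upstream start) and 36.7% (downstream start). GC boxes occurred in the windows of Hmces, Xrcc6 and Lgals3, among 6 members with a window (Ly75, Tgm3, Spp1, Hmces, Lgals3 and Xrcc6), and in 35.7% of all windows. Of the 3 GC boxes of Hmces 2 overlap each other. The Klf site of Hmces overlaps none of its GC boxes and occurred in 3.56% of all windows. An Esrrb site (TCAAGGTCA, 0.423% of all windows) and an E-box (CACGTG, 7.15%) were in none of the 7 windows of these 6 genes. No motif searched was in all of them.

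Morc1 (ENSMUSG00000022652) encodes an ATPase of the MORC family that mouse male germ cells need for meiosis and for silencing of transposons. It had 54.6 and 76.8 CPM of footprints in the knockdown libraries, against 172 and 229 CPM in the control libraries. In total RNA it had 59.5 and 62.3 CPM in the knockdown libraries, against 129.8 and 185 CPM in the control libraries. Its control libraries differed more than those of any other member, yet the lower of them was 2.24-fold above the higher knockdown library in footprints and 2.08-fold in total RNA. The log2 fold changes were -1.60 ± 0.22 and -1.33 ± 0.19, and the total RNA value lay between -1.59 without control 1 and -1.08 without control 2. Its neighbour Dppa2, a stem cell gene, was on the other side of control, at 137 ± 40.2 CPM in knockdown footprints and 97.3 ± 9.74 CPM in control footprints (SD, n = 2 each). Trim28, a corepressor of retrotransposons, was at -0.16 ± 0.23 for footprints and -0.21 ± 0.20 for total RNA, and Dnmt3l, a cofactor of DNA methylation, at -0.52 ± 0.21 and -0.34 ± 0.17.

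Sept1 (ENSMUSG00000000486) encodes a septin, a GTP-binding protein that assembles into filaments at membranes and in cytokinesis. It had 65.5 and 67.7 CPM of footprints in the knockdown libraries, against 165 and 201 CPM in the control libraries. In total RNA it had 31.4 and 31.7 CPM in the knockdown libraries, against 82.0 and 88.7 CPM in the control libraries. The knockdown libraries were almost equal in each assay. The log2 fold changes were -1.44 ± 0.17 and -1.41 ± 0.14. Of the septins Sept2 was at -0.16 ± 0.16 for footprints and -0.41 ± 0.18 for total RNA, and Sept11 at 0.03 ± 0.16 and 0.27 ± 0.28. All 10 septins other than Sept1 that were tested in footprints lay between -0.32 and 0.27, and the 9 tested in total RNA between -0.66 (Sept6) and 0.48.

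Sept1 overlaps Mylpf in the RefSeq table, a muscle myosin light chain gene, so that the split of reads between them is uncertain. Mylpf had 35.8 ± 2.30 CPM in knockdown footprints and 68.7 ± 13.1 CPM in control footprints (SD, n = 2 each), and its log2 fold change was -0.91 ± 0.19 for footprints and -0.62 ± 0.27 for total RNA. It thus lay below control like Sept1, by a smaller amount.

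Mapt (ENSMUSG00000018411) encodes tau, which binds and steadies microtubules in axons. It was the member with the fewest footprint reads, 83 and 49 in the knockdown libraries and 145 and 198 in the control libraries. Its footprints were 9.34 and 5.13 CPM in the knockdown libraries, against 15.4 and 19.6 CPM in the control libraries. Its total RNA was 8.76 and 9.17 CPM in the knockdown libraries, against 29.2 and 29.3 CPM in the control libraries. Replicates were almost identical in total RNA and far apart in footprints, where the knockdown pair differed by 0.76 on the log2 scale. The log2 fold change was -1.60 ± 0.16 in total RNA and -1.21 ± 0.30 in footprints. The footprint value was -1.59 without knockdown 1 and -0.83 without knockdown 2. The stathmins Stmn1 and Stmn2, which bind free tubulin, were also below control in each library, at -0.71 ± 0.20 and -0.64 ± 0.19 in footprints, without passing limma's threshold (adjusted p = 0.222 and 0.248).

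Tgm3 (ENSMUSG00000027401) encodes a transglutaminase that crosslinks proteins in epidermis and hair. It had 7.54 and 8.47 CPM of footprints in the knockdown libraries, against 24.3 and 31.1 CPM in the control libraries. In total RNA it had 5.13 and 5.56 CPM in the knockdown libraries, against 16.1 and 20.5 CPM in the control libraries. Few reads were counted, but the groups were far apart in both assays. The log2 fold changes were -1.67 ± 0.23 in footprints, the lowest of the 10, and -1.60 ± 0.19 in total RNA. The other transglutaminases that were tested lay below control as well: Tgm2 had 9.93 ± 2.35 CPM in knockdown footprints and 20.8 ± 5.44 CPM in control footprints, and Tgm1 had 42.5 ± 2.03 and 53.4 ± 5.29 CPM (SD, n = 2 each). Neither passed limma's threshold (adjusted p = 0.211 and 0.480 in footprints, 0.101 and 0.209 in total RNA). The window around the Tgm3 start (RefSeq, GRCm38.p6, chr2:130012090-130012389, plus strand) is shown as a further example. It held 46.7% G and C, less than the windows of Hmces, Xrcc6, Ly75 and Lgals3 and more than those of Spp1. Its TATA box (TATAAA, 13.6% of all windows) is in capitals.
Tgm3: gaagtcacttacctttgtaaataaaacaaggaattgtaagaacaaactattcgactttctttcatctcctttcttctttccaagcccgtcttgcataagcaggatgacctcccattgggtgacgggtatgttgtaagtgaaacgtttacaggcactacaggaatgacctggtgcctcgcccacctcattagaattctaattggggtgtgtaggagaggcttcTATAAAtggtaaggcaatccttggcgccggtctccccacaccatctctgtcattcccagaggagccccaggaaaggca
The match lies before the annotated start. The window around the upstream start of Spp1 held the same letters, also before its start.

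Set against all genes, the 10 lay at the lower end in both assays. Their median log2 fold change was -1.45 in footprints and -1.37 in total RNA, where the median of all genes tested was 0.01 in footprints and 0.00 in total RNA. From the lowest value upwards, they ranked between 14 (Tgm3) and 71 (Xrcc6) of 12723 genes in footprints and between 6 (Ly75) and 169 (Xrcc6) of 13436 in total RNA. There were 30 further genes as low as the highest member in each assay, at or below -1.21 in footprints and -0.98 in total RNA. limma called 0% of all genes in each assay after adjustment, with 857 genes in footprints (6.74%) and 1085 in total RNA (8.08%) lower at an unadjusted p below 0.05. In total RNA edgeR's quasi-likelihood test also called 0 and DESeq2 called 272 of all genes, 1.25% as lower and 0.774% as higher. In the authors' deposited table each of the 10 was listed as lower at an FDR below 0.05 in footprints, as were 0.889% of all genes, and in total RNA, as were 3.19%. The genes were picked from these values, and nothing is read from the counts.

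**Figure D2:**
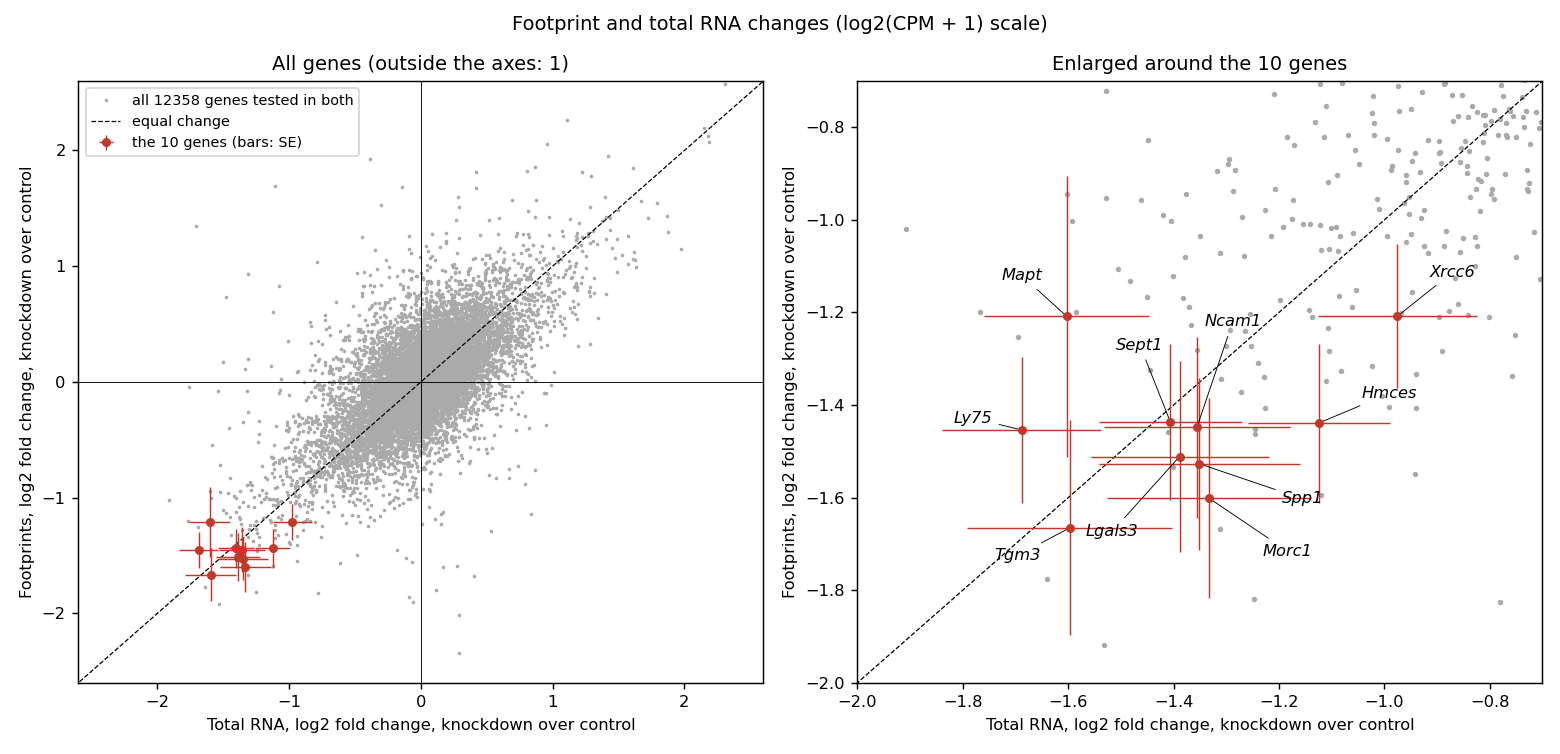
Log2 fold change of knockdown over control in footprints (vertical axis) against total RNA (horizontal axis), for 12358 genes tested in both (grey) and the 10 genes (red, bars are SE), with an enlarged view on the right. The 10 genes lie between -1.67 and -1.21 in footprints and between -1.69 and -0.98 in total RNA, on both sides of the dashed line of equal change.

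The change in footprints over total RNA, which is the difference between the 2 log2 fold changes, ran from -0.31 ± 0.22 (Hmces) to 0.39 ± 0.37 (Mapt), with a median of -0.11. It was negative in 8 of 10 genes and positive in Ly75 (0.23 ± 0.22) and Mapt. Each of these values was under 2 times its SE. Sizes rest on single libraries, and so does the direction in Sept1, Spp1, Tgm3, Lgals3 and Ncam1, where the sign turned with 1 library left out. In the other genes the sign was kept. Mapt was at 0.02 without knockdown 1 of the footprints and at 0.77 without knockdown 2, and Hmces lay between -0.44 and -0.19 with 1 library left out. The median lay between -0.24 without control 2 of the total RNA and 0.02 without its control 1. The count of 8 was 5 without knockdown 1 or control 2 of the footprints and 4 without control 1 of the total RNA. Over all 12358 genes the median was 0.00, and limma's interaction of assay and knockdown called 0%, with 74 genes lower and 118 higher at an unadjusted p below 0.05.

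In control cells most of these genes carried many footprints for their RNA. The 2 tables were normalized separately, so only the order of genes along this ratio can be read, and it also depends on how much of each mRNA is coding. The ratio of control footprints to control total RNA was above 1 in 9 of 10 genes, against 32.5% of all 12358 genes, and the median log2 ratio was 0.40, against -0.30. Spp1 had 2.46 times as many CPM in footprints as in total RNA (above 98.7% of genes) and Sept1 2.14 times (97.9%). Ncam1 (1.68, 94.4%) and Tgm3 (1.51, 91.6%) followed. Ly75 stood at 1.00 (67.8%), and Mapt alone lay below the median of all genes, at 0.599 (27.6%). The same ratio in knockdown cells was 2.21 for Spp1, 2.11 for Sept1, 1.60 for Ncam1 and 0.807 for Mapt, where these 4 kept the order they had in control cells. The order of all 10 was not kept. Ly75, at 1.19 in knockdown cells, was above Morc1 (1.08), Hmces (1.05) and Xrcc6 (0.959), whereas at 1.00 in control cells it was below Hmces (1.31), Morc1 (1.27) and Xrcc6 (1.13). The control libraries also entered the choice of the genes, so this ratio is given as a description.

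**Figure D3:**
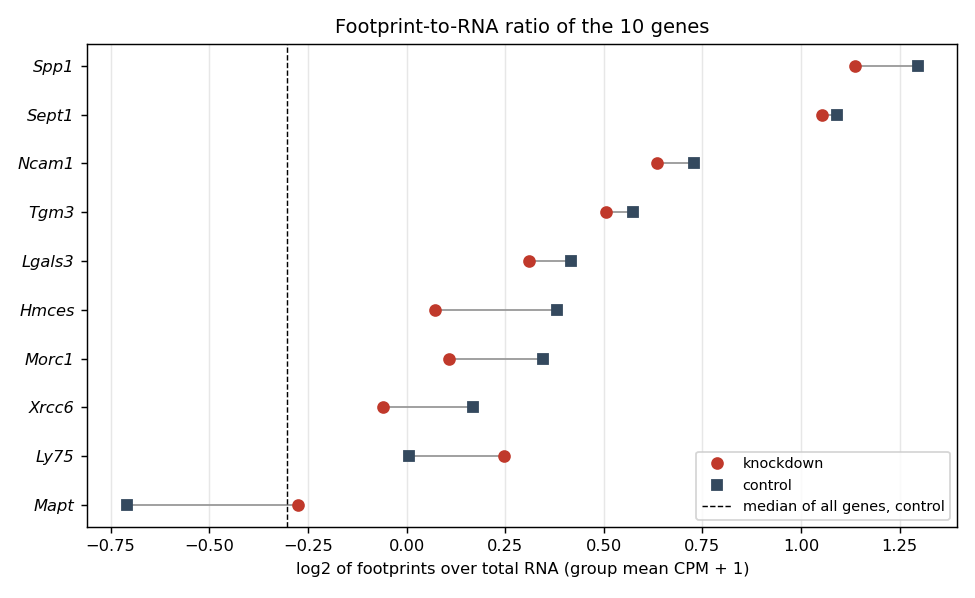
Log2 ratio of footprints to total RNA, from group means of CPM + 1, for each of the 10 genes in knockdown (red circles) and control cells (dark squares). The dashed line is the median of all genes in control cells (-0.30). All but Mapt lie to its right in control cells, and the shift between the groups is small beside the spread among genes.

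The spread between replicates was uneven. In total RNA the knockdown libraries differed by at most 0.23 on the log2 scale in these genes (Ncam1), while the control libraries differed by up to 0.51 (Morc1). In footprints the largest differences were 0.76 between the knockdown libraries (Mapt) and 0.41 between the control libraries (Morc1). Control 2 was above control 1 in 9 of 10 genes in each assay, where this was so for 49.7% of all genes in footprints and 50.0% in total RNA. With each library left out in turn all 10 log2 fold changes were at -0.83 (Mapt) or lower in footprints and at -0.84 (Xrcc6) or lower in total RNA. Their sign was fixed beforehand, because each knockdown library lay below each control library, so only their sizes can be read.

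**Figure D4:**
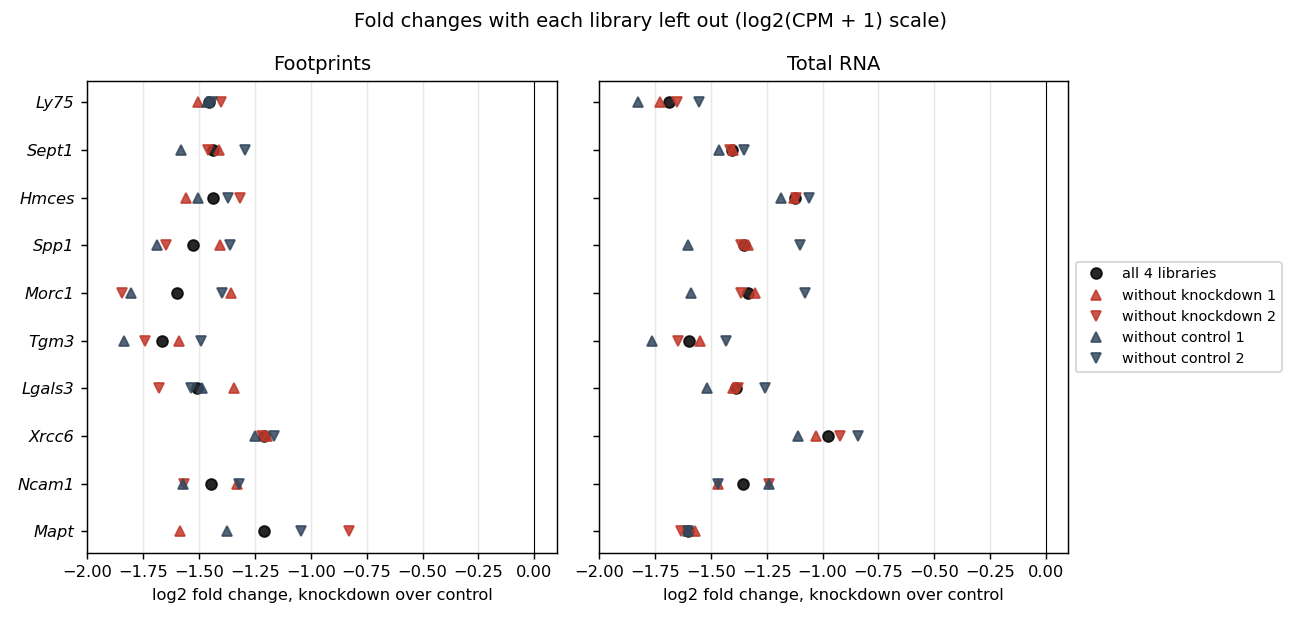
Log2 fold change of knockdown over control for each gene with all 4 libraries of an assay (black) and with each library left out (red for a knockdown library, dark for a control library, pointing up for replicate 1 and down for replicate 2). All values lie below 0, which the separation of the groups fixes beforehand, and the footprint value of Mapt moves most, between -1.59 and -0.83.

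Genes related to the 10 by family, complex or pathway were gathered in 10 lists of 126 genes in all, of which 99 were tested in footprints and 95 in total RNA. limma called 0 of them in either assay. At an unadjusted p below 0.05, 12 were lower and 7 higher in footprints (12.1% and 7.07%, against 6.74% and 6.12% of all genes), and 13 were lower and 10 higher in total RNA (13.7% and 10.5%, against 8.08% and 6.82%). In total RNA edgeR's quasi-likelihood test also called 0. The median log2 fold change was 0.03 in each assay, and 46 of 99 genes in footprints and 42 of 95 in total RNA had a negative value.

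By list, the microtubule proteins had the most members below control at an unadjusted p below 0.05, with 4 of 17 in footprints (Map1a, Map1b, Stmn1 and Stmn2) and 4 of 17 in total RNA (Map1b, Stmn1, Stmn2 and Stmn3), and 1 higher in each. The microtubule list had a median of -0.06 in footprints. Of 2 transglutaminases Tgm2 was lower in each assay and Tgm1 in total RNA. Of 20 genes of base excision repair the glycosylase Neil1 was lower in each assay, and Mpg was higher in footprints. In the list of MORC proteins and transposon silencing, Piwil4 and Dnmt3l were lower and Tex19.1 and Tdrd1 higher among 13 in footprints, and in total RNA Piwil4 was lower and Mov10l1 and Tdrd1 higher. Of 12 end joining genes Xrcc5 was the only one lower in each assay, and Trp53bp1 was higher in total RNA. Of 7 adhesion genes in footprints and 6 in total RNA, Cdh1 was higher and none lower. Of 8 osteopontin receptors in footprints Itga9 was lower, and Itgb5 and Itga5 were higher. In total RNA Itga9 and Itgb3 were lower and Itgb5 higher. Of 7 galectins and their binding proteins Lgals8 was lower in footprints, and of 6 in total RNA Lgals8 was lower and Lgals1 and Lgals9 were higher. Of 4 lectin receptors Cd302 was lower in footprints, and of 3 in total RNA Mrc1 and Mrc2 were higher. None of 10 septins was lower or higher in footprints, and Sept6 was lower among 9 in total RNA. These names are those with the smallest p in their lists, chosen after their values were seen, and none passed limma's threshold over all genes tested. For total RNA, DESeq2 called 4 of 95 related genes and 272 of all 13436 genes. By the authors' deposited table Map1b was listed as lower and Tdrd1 as higher in footprints at an FDR below 0.05. Each is 1.01% of the related genes, against 0.889% of all genes listed as lower. In the authors' deposited table of total RNA, 6 related genes were listed as lower (Itga9, Neil1, Piwil4, Stmn2, Stmn3 and Tgm2) and 3 as higher (Cdh1, Tdrd1 and Trp53bp1). These are 6.32% and 3.16% of the related genes, against 3.19% of all genes listed as lower. The share of all genes listed as higher was not counted. Whether a member differs from its list was not tested.

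**Figure D5:**
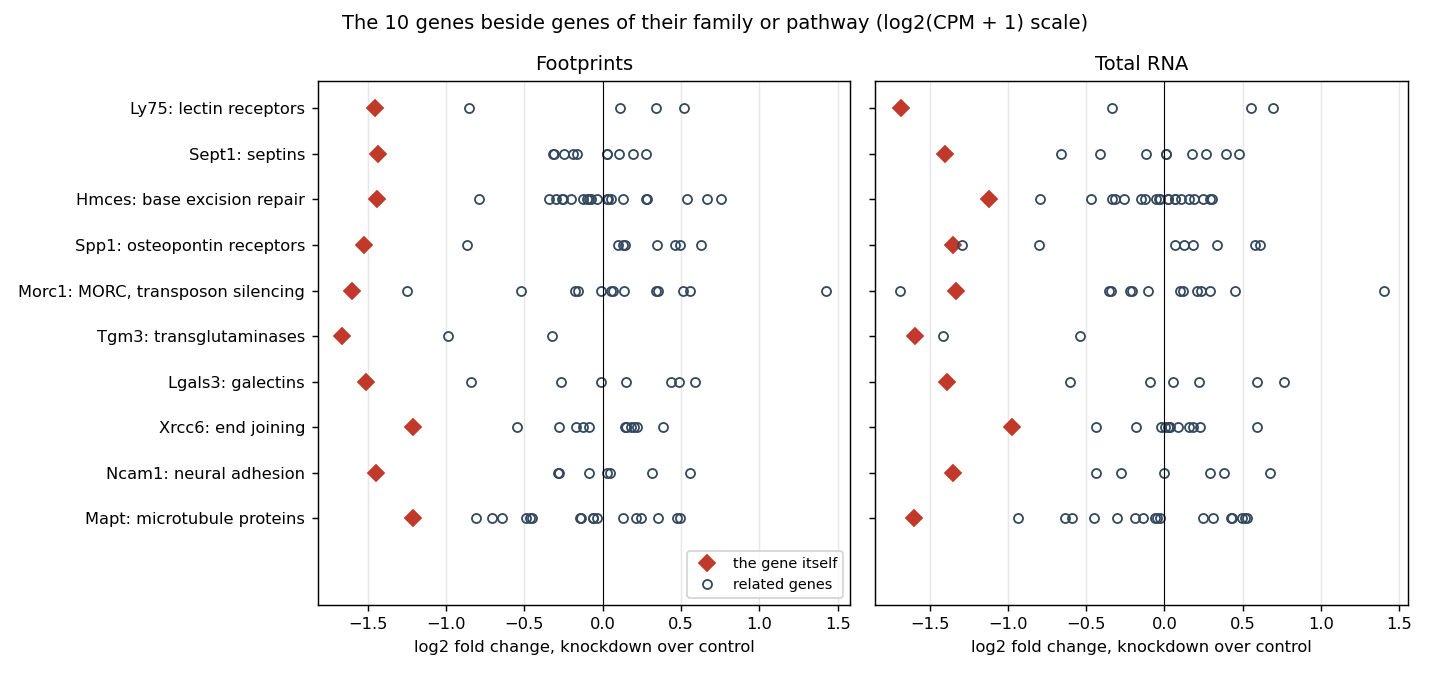
Log2 fold change of knockdown over control in footprints (left) and total RNA (right) for each of the 10 genes (red diamonds) and for the genes of its family or pathway (open circles), 1 row for each list. In footprints every diamond lies left of all circles of its row, while in total RNA Piwil4 lies left of Morc1.

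The genes outside the 10 whose pattern over the 8 libraries, centred within each assay, was most like the mean pattern of the 10 were Sun1, a nuclear envelope protein (Pearson r = 0.999 over 8 values), Map4k3, a protein kinase (r = 0.998), and Pfkp, a phosphofructokinase of glycolysis (r = 0.991), among 7676 genes with at least 10 CPM in each group mean. The libraries share depth and handling, and the measure takes no account of size. Sun1 stood at -0.44 ± 0.15 for footprints and -0.44 ± 0.13 for total RNA, and Map4k3 at -0.39 ± 0.17 and -0.38 ± 0.13. Pfkp had log2 fold changes of -1.20 ± 0.15 and -1.25 ± 0.14, with 179 ± 3.51 CPM in knockdown footprints and 414 ± 7.21 CPM in control footprints (SD, n = 2 each). Against the mean of the other 9, each of the 10 had an r between 0.934 (Mapt) and 0.999 (Sept1), which follows from their choice.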

How the data were processed

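Footprints and total RNA were measured in 8 libraries, 2 in each of 4 groups. Per the submitters' processing notes the authors' tools were HTSeq 0.11.2, Bowtie 1.2.3, edgeR 3.26.8 and TopHat2 2.1.1 with the mouse build mm9, and their roles are not given in the sources used here. Libraries were sequenced as 50 bp reads per the labels' protocols, footprint libraries 4 times. The deposited library columns hold a signal, reads per gene divided by an effective library size, written here as CPM. The authors' deposited table of each assay also gives log2 fold changes, a likelihood ratio score and p-values.

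Values were whole multiples of the smallest one above 0 in their column (tolerance 0.01 read, 100% of genes), so read counts were taken back from the deposited signal for the filter (edgeR 4.0.16 filterByExpr, minimum count 10, minimum total 15) and for count tests as alternatives. An automatic check could not tell this for control 2 of the footprints, and no count test used that column. Its recovered reads did enter the filter and the read numbers given above. Knockdown was compared with control by limma 3.58.1 (R 4.3.3) on log2(CPM + 1), its variance prior following mean expression and p adjusted by Benjamini-Hochberg at 0.05, and assay by knockdown as an interaction over all 8 libraries. The fitting was tested on simulated data. SE are limma's. DESeq2 1.42.0 and edgeR's quasi-likelihood test were alternatives for total RNA.

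The members and lists were chosen with earlier results of these data known. Genes named are the 10, Eif4a2, Xrcc5, the 2 of each related list with the highest control footprints, and the 3 nearest patterns; neighbours and genes with the smallest p in a list were added after their values were seen. Promoter windows came from RefSeq (GRCm38.p6), with 6 of 10 genes matched by symbol; Sept1, Morc1, Ncam1 and Mapt had none. Overlaps and neighbours are from the RefSeq gene table of that build. With 2 libraries a group no exact test of 1 gene can reach the threshold.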

Additional observations from a re-analysis of the deposited data

How the results depend on the processing

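The fold changes of the 10 genes in footprints and in total RNA were negative in each alternative. The sign could not turn with 1 library left out or another pseudocount, because each knockdown library lay below each control library. A replicate block, crossed or not, all 8 libraries in 1 fit and no filter cannot move the fold changes and are not counted here. Under the other settings there were 280 values, changes in footprints over total RNA included. Of these, 267 moved by less than the spread between replicates and 13 by more, 6 of the 13 with a pseudocount of 4. Leaving out 1 library cannot move a value by more than this spread, apart from rounding, so those values are no check of stability. Over all genes limma called 0 in footprints and 0 in total RNA. In footprints 21 genes were called with the replicate number as a block and 89 with all 8 libraries in 1 fit; in total RNA 636 with the replicate block, 97 with all 8 libraries in 1 fit and 272 by DESeq2. Leaving out 1 library gave between 1 and 36 calls in footprints, between 34 and 6191 in total RNA and 0 or 1 for footprints over total RNA. In total RNA the omission of knockdown 1 gave 62 calls, that of knockdown 2 gave 34, that of control 1 gave 6191 and that of control 2 gave 3411. Without control 2 of the footprints, edgeR's quasi-likelihood test, added after seeing the data, called 3. Pseudocounts of 0.5 and 4, no filter and median-of-ratios scaling left the counts at 0. Among the related genes in total RNA, 5 were called with the replicate block, 3 with all 8 libraries in 1 fit, 4 by DESeq2 and between 1 and 56 with 1 library left out, against 0. The cause was not tested. Libraries share only a number: deviations of same-numbered libraries correlated at 0.231 in footprints and -0.275 in total RNA. Crossing the numbers in total RNA, chosen after seeing the data, gave 924 calls, 13 of them among the related genes. Genes with under 100 reads in a library (Mapt and Tgm3) are limited by depth.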
